A study of Mus musculus with 27 samples.

Results

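Retinal ganglion cells (RGCs) are represented here by 10 genes: Rbpms, Pou4f1, Pou4f2, Pou4f3, Sncg, Nefl, Nefm, Nefh, Thy1 and Slc17a6. These 10 symbols were taken as listed from the 40129 genes in the deposited table, and all 10 were among the 27137 genes tested. Their means over the mice were 99.2 to 17205 normalized reads, so none was near the lower limit of the filter. Normalized reads are read counts divided by a size factor for each mouse.

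The study set the oxygen-induced retinopathy (OIR) mouse beside human proliferative diabetic retinopathy to see how far their retinal new vessels are alike, and its mouse arm, used here, compared OIR with control retinas. All mice were WT, with the strain labelled C57BL/6 and given as C57BL/6J in the study's methods. OIR pups spent several days in high oxygen, which removes vessels from the central retina, and were then returned to room air and examined at age 14 days (p14) or 17 days (p17). Controls (nOIR) were kept in room air throughout and examined at the same ages. Compared here were 6 control and 6 OIR mice of age p14, and 6 control and 8 OIR mice of age p17. Replicate 4 of nOIR p14 was left out. That mouse had been excluded for lens transcripts in the original work as well. Each library came from whole retina, either a single retina or both retinas of a mouse pooled. Mice came from a few litters per group, the litter of each mouse was not used here, and every test takes mice as independent.

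RGCs are the output neurons of the retina, and their axons form the optic nerve. They are few compared with rods, they release glutamate, and their long axons are rich in neurofilament. Several of the genes that mark them are not exclusive to them in whole retina: Sncg, Thy1, the neurofilaments, Rbpms and Slc17a6 can be found in other retinal cells, whereas the Pou4f genes are used as RGC markers because they are largely restricted to RGCs within the retina. Since whole retina was sequenced, fewer RGCs and less RNA of a gene per RGC cannot be told apart.

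Recovered read totals were 17029536 to 33593428 per mouse, and the lowest value of any member in any mouse was 36.7 normalized reads. The tissue carried its defining transcripts: the 8 rod markers summed to 1167798 to 1430879 normalized reads in nOIR p14 mice, and no rod, bipolar or amacrine marker was at 0 in all mice of a group. Lens markers, which come from tissue outside the retina, varied widely within every group, from 122 to 23771 normalized reads in nOIR p14, from 254 to 8456 in OIR p14, from 222 to 14074 normalized reads in nOIR p17 and from 481 to 41065 in OIR p17. The lens gene Cryaa was at 6142 normalized reads in the left-out mouse and higher in 4 mice that were kept, at 6771 in nOIR p14 replicate 5 and at 7456 to 12404 in OIR p17 replicates 2, 7 and 8. A fit with Cryaa as a covariate kept the number of members called lower at 4 for p14 and gave 7 for p17.

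Per kilobase of the longest transcript, the 10 genes spanned a wide range of levels in nOIR p17 mice. Nefl, the light neurofilament chain, was at 6399.7 ± 597 normalized reads per kb (SD, n = 6), and Sncg, gamma-synuclein, was at 6344 ± 735, so the 2 highest did not differ beyond their spread. Nefm, the medium chain, followed at 2295 ± 166, then Nefh, the heavy chain, at 1434 ± 102, and Slc17a6, the vesicular glutamate transporter VGLUT2, at 901 ± 96.3. Thy1, a cell surface glycoprotein, at 608 ± 92.9, and Rbpms, an RNA-binding protein, at 586 ± 31.9, overlapped each other. The 3 transcription factors were lowest, with Pou4f1 at 114 ± 41.2, Pou4f2 at 58.4 ± 9.84 and Pou4f3 at 47.0 ± 8.62 normalized reads per kb, the last 2 within each other's spread.

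**Figure D1:**
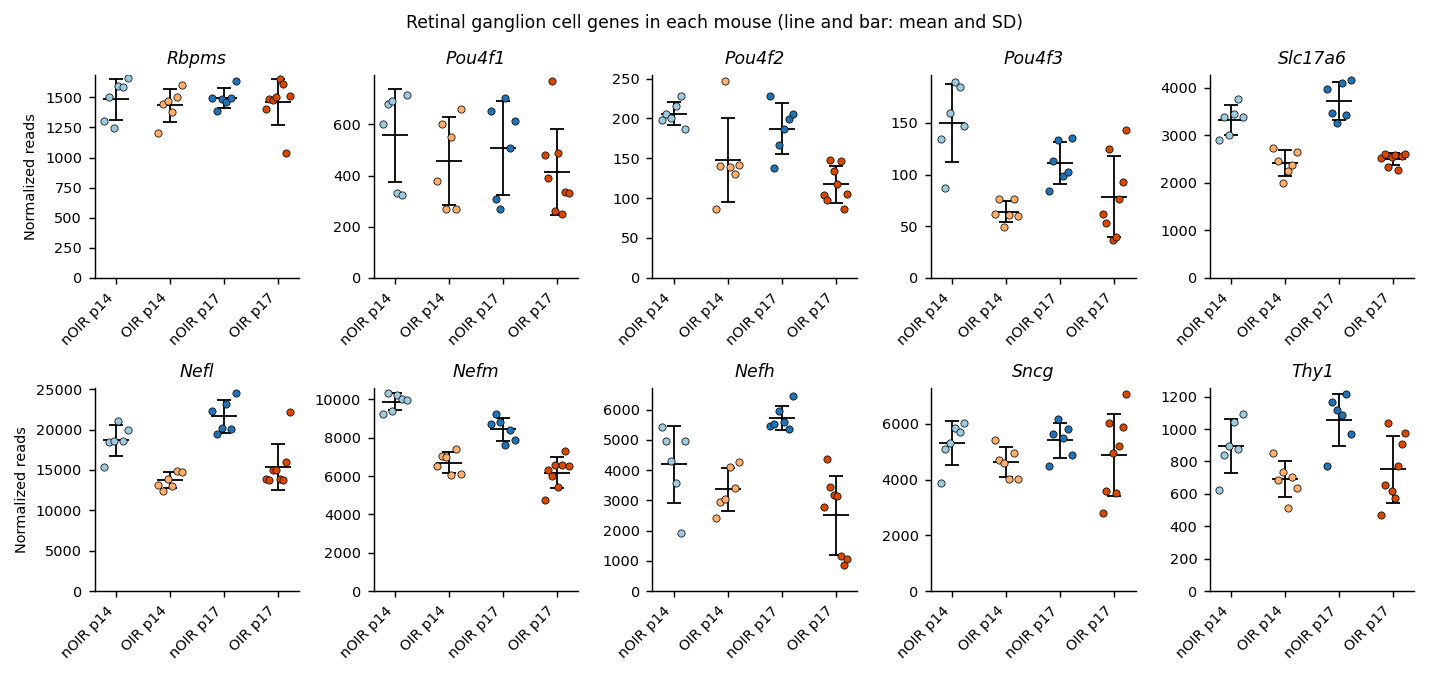
Normalized reads of the 10 RGC genes (vertical axes, linear and starting at 0) in each of 26 mice by group, with points for mice, a long line for the mean and bars for the SD. OIR mice lay below all nOIR mice of the same age in Nefl, Nefm, Pou4f3 and Slc17a6 at p14 and in Nefm, Nefh and Slc17a6 at p17.

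The members called were all lower in OIR retinas, and none was higher. At p14, 4 of 10 passed the test (limma with Benjamini-Hochberg adjustment over all genes tested, adjusted p under 0.05), all lower in OIR, whereas 2.91% of all genes tested were called lower. At p17, 6 of 10 passed, all lower, whereas 5.12% of all genes were called lower. The fitted difference was negative in 10 of 10 members at each age, and the median over the members was -0.41 (p14) and -0.51 (p17) on the log2 scale, while the medians over all genes were 0.017 and -0.023. The 2 comparisons share no mice, although both take their estimate of the spread from a single fit of all groups. None of the members reached the log2 fold change of -2 by which the study defined differentially expressed genes (DEG), a limit passed by 0.14% of genes in the lower direction at p14 and by 0.173% at p17.

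**Figure D2:**
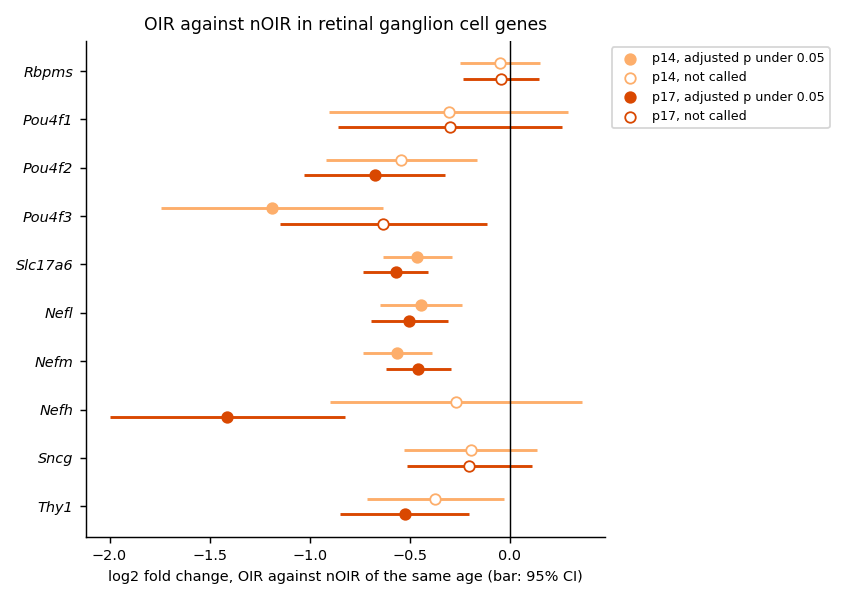
Log2 fold change of OIR against nOIR mice of the same age (horizontal axis) for the 10 RGC genes, with p14 in light and p17 in dark orange, bars for the 95% CI and filled points for an adjusted p under 0.05. All 20 points lie to the left of 0, and Nefh at p17 lies farthest to the left.

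The Pou4f genes encode POU-domain transcription factors of RGC differentiation and survival. The 250 bases upstream of the RefSeq start of Pou4f2 and of both starts of Slc17a6 are shown because these members were called lower and had an entry in the RefSeq promoter table (build GRCm38.p6), from which 4 of the 10 members were used. Not all entries were used, so a member that is not shown may still have one. Sequences read 5′ to 3′ on the strand of the gene, in lower case, with capitals for a match to any of 7 motifs searched on both strands, namely the E-boxes CAGCTG and also CACGTG, the hypoxia-response core ACGTG (which lies within the latter E-box), the POU-type element ATAATTA, the cAMP-response element TGACGTCA, the AP-1 element TGACTCA and the TATA box TATAAA.
Pou4f2, chr8:78436648-78436897, minus strand: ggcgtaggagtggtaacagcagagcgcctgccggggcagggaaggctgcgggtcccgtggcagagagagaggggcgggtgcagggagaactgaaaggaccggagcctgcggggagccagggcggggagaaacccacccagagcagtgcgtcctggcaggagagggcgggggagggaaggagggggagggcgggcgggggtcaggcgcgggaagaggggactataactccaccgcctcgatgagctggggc
Slc17a6, chr7:51621580-51621829, plus strand: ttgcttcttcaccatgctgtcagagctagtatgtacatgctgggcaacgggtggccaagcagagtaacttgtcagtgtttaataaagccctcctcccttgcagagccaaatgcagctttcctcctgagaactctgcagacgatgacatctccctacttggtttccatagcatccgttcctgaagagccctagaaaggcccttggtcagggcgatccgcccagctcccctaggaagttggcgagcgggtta
Slc17a6, chr7:51624387-51624636, plus strand: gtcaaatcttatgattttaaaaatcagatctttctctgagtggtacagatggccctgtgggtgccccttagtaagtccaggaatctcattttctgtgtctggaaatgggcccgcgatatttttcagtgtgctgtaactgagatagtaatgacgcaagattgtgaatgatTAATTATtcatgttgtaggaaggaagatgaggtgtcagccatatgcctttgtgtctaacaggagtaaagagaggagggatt
No motif searched was found in the stretch of Pou4f2 or in the first stretch of Slc17a6. The second stretch of Slc17a6 held ATAATTA on its minus strand, printed as TAATTAT, which 2.50% of all 32851 promoters of this length held. GC content was 70.8% for Pou4f2 and 53.2% and 41.2% for Slc17a6, against a median of 52.4% over all promoters. A match is given as a description of the letters, and binding was not measured.

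Pou4f2 (Brn3b), which is needed for RGCs to form and survive, ranged over 187 to 228 (median 203) normalized reads in 6 nOIR p14 mice and 86.5 to 247 (median 140.0) in 6 OIR p14 mice. At p17 it ranged over 138 to 228 (median 193) in nOIR and 86.9 to 148 (median 111) in OIR mice. The groups overlapped at both ages, although 5 of 6 OIR p14 mice lay below every nOIR p14 mouse and the other, replicate 3, was the highest mouse of both groups. Pou4f2 fell by 37.3% at p17 (log2 fold change -0.67, SE 0.17, adjusted p = 0.00700, limma). At p14 the difference did not pass (log2 fold change -0.54, 95% CI -0.92 to -0.16, adjusted p = 0.0843, limma), and it passed without OIR p14 replicate 3 (log2 fold change -0.70, adjusted p = 0.00978, limma).

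Pou4f3 (Brn3c), a related factor of a subset of RGCs, ranged over 86.9 to 189 (median 153) normalized reads in nOIR p14 and 49.4 to 76.4 (median 61.3) in OIR p14 mice. All 6 OIR mice lay below all 6 controls, and Pou4f3 fell by 56.1% (log2 fold change -1.19, SE 0.27, adjusted p = 0.00555, limma). At p17 the ranges were 83.8 to 135 (median 108) in nOIR and 36.7 to 143 (median 69.1) in OIR. The 8 OIR p17 mice spread on both sides of the controls with a mean ± SD of 78.4 ± 39.2, and the difference did not pass (log2 fold change -0.63, 95% CI -1.15 to -0.11, adjusted p = 0.111, limma).

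Pou4f1 (Brn3a), found in most RGCs, varied by 32.7 to 40.8% (coefficient of variation) within groups. It ranged over 324 to 716 (median 640.2) normalized reads in nOIR p14 and 269 to 661 (median 465) in OIR p14 mice, and over 269.8 to 705 (median 559.8) in nOIR p17 and 251 to 769 (median 363) in OIR p17 mice. All groups overlapped, and the interval of the difference was wide at p14 (log2 fold change -0.31, 95% CI -0.90 to 0.29, adjusted p = 0.691, limma) and at p17 (log2 fold change -0.30, 95% CI -0.86 to 0.26, adjusted p = 0.586, limma).

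Slc17a6 loads glutamate into synaptic vesicles. It ranged over 2895 to 3759 (median 3386) normalized reads in nOIR p14 and 1995 to 2734 (median 2417) in OIR p14 mice, and over 3246 to 4167 (median 3712) in nOIR p17 and 2259 to 2608 (median 2549.9) in OIR p17 mice. OIR mice lay below all controls at both ages, and at p17 the 8 OIR mice were close together, with a coefficient of variation of 5.32%. Slc17a6 fell by 27.4% at p14 (log2 fold change -0.46, SE 0.085, adjusted p = 0.000628, limma) and fell by 32.6% at p17 (log2 fold change -0.57, SE 0.079, adjusted p = 3.74e-06, limma).

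The neurofilament chains assemble into the intermediate filaments of large axons. Nefl, the most abundant of them, ranged over 15350.1 to 21065 (median 18602) normalized reads in nOIR p14 and 12433 to 14886 (median 13547) in OIR p14 mice, without overlap. It fell by 26.4% at p14 (log2 fold change -0.44, SE 0.10, adjusted p = 0.00510, limma). At p17 the ranges were 19511 to 24566 (median 21238) in nOIR and 13744 to 22158 (median 14424) in OIR mice. In that comparison 7 of 8 OIR mice lay below all controls, OIR p17 replicate 8 being the exception, and Nefl fell by 29.3% (log2 fold change -0.50, SE 0.093, adjusted p = 0.000246, limma).

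Nefm ranged over 9250.2 to 10329 (median 10021) normalized reads in nOIR p14 and 6062 to 7427 (median 6781) in OIR p14 mice, and over 7632 to 9265 (median 8539.9) in nOIR p17 and 4754 to 7298 (median 6416) in OIR p17 mice. The groups did not overlap at either age. Nefm fell by 32.3% at p14 (log2 fold change -0.56, SE 0.084, adjusted p = 4.61e-05, limma) and fell by 27.1% at p17 (log2 fold change -0.46, SE 0.079, adjusted p = 9.35e-05, limma), and of the members it had the smallest adjusted p at p14.

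Nefh ranged over 5369.5 to 6446 (median 5556) normalized reads in nOIR p17 and 857 to 4367 (median 2965) in OIR p17 mice, without overlap. It fell by 62.4% (log2 fold change -1.41, SE 0.29, adjusted p = 0.000721, limma), the farthest of the 10 members at this age, a rank that rests on 3 of the mice. The 8 OIR p17 mice lay in 2 ranges: replicates 6, 7 and 8 had 857 to 1173 normalized reads and the other 5 had 2771 to 4367. At p14 the ranges were 1932 to 5429 (median 4638) in nOIR and 2432 to 4262 (median 3235) in OIR mice, in which nOIR p14 replicate 6 was the lowest of both groups. The difference at p14 did not pass (log2 fold change -0.27, 95% CI -0.90 to 0.36, adjusted p = 0.759, limma).

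The genes whose values followed Nefh most closely over the 26 mice, after subtraction of the group means on the log2 scale, were Slain1 (Pearson r 0.98, Spearman rho 0.93), Csnk1g2 (Pearson r 0.97, Spearman rho 0.94) and 2510039O18Rik (Pearson r 0.97, Spearman rho 0.93). The same 3 OIR p17 mice were lowest in Csnk1g2, with 320.1 to 465 normalized reads against 2032 or more in the other 5, and nOIR p14 replicate 6 had 503. These 3 genes did not pass the test at p17 (Csnk1g2 log2 fold change -1.07, adjusted p = 0.154, limma). Without the 4 mice under 1000 normalized reads of Csnk1g2, Nefh at p17 was 5728 ± 407 in 6 nOIR and 3388 ± 599 in 5 OIR mice, and the log2 fold change moved to -0.77 (SE 0.13, adjusted p = 0.000128, limma). Csnk1g2 was chosen after its likeness to Nefh had been seen, and the 4 mice are also the 4 lowest in Nefh, so these values describe the other mice and are no independent test. Leaving them out takes away the lowest control at p14, which raises the control mean there, and although Nefh at p14 then passed (log2 fold change -0.48, adjusted p = 0.0286, limma), no call is drawn from it. Pou4f3 (log2 fold change -0.93) then lay farther from 0 than Nefh at p17. What sets these 4 libraries apart was not tested.

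**Figure D3:**
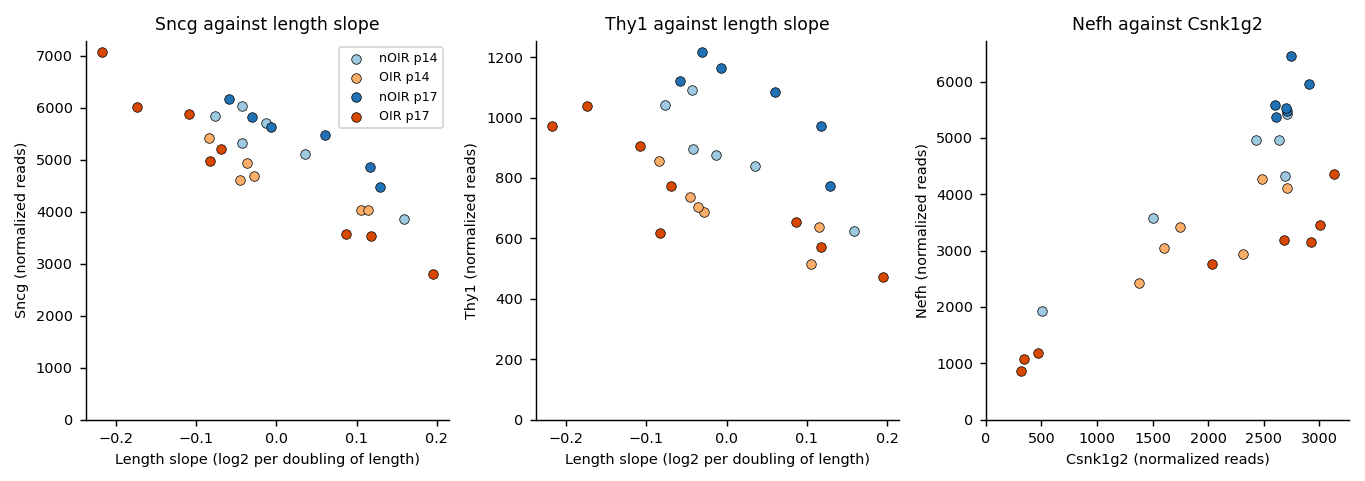
Normalized reads of Sncg (left) and Thy1 (middle) against the length slope of each library (log2 deviation per doubling of transcript length), and of Nefh against Csnk1g2 (right, normalized reads on both axes), 1 point per mouse for 26 mice, colored by group. Sncg and Thy1 are lower where the slope is higher, and 4 mice lie apart at Csnk1g2 values of 320.1 to 503 normalized reads.

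Within a mouse, Nefm was 0.533 ± 0.0437 of Nefl in nOIR p14 and 0.491 ± 0.0505 in OIR p14, as a ratio of normalized reads. At p17 it was 0.395 ± 0.0608 in nOIR and 0.408 ± 0.0641 in OIR. OIR and nOIR mice of the same age overlapped in this ratio.

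Sncg, whose protein is abundant in RGC axons, ranged over 3859.7 to 6039.6 (median 5507) normalized reads in nOIR p14 and 4023 to 5409.9 (median 4647) in OIR p14 mice, and over 4478 to 6173 (median 5547) in nOIR p17 and 2800.1 to 7075 (median 5084) in OIR p17 mice. All groups overlapped and neither difference passed (at p14 log2 fold change -0.19, 95% CI -0.53 to 0.14, adjusted p = 0.627, and at p17 log2 fold change -0.20, 95% CI -0.51 to 0.11, adjusted p = 0.488, limma). Thy1 ranged over 624 to 1093 (median 887) in nOIR p14 and 515 to 855 (median 696) in OIR p14 mice, and over 773 to 1217 (median 1103) in nOIR p17 and 471 to 1037 (median 714) in OIR p17 mice. Thy1 overlapped at both ages, fell by 30.4% at p17 (log2 fold change -0.52, SE 0.16, adjusted p = 0.0243, limma) and did not pass at p14 (log2 fold change -0.37, 95% CI -0.72 to -0.026, adjusted p = 0.248, limma). The call at p17 was lost when any of 6 mice was left out, namely OIR p17 replicates 1 and 5 and nOIR p17 replicates 2, 3, 4 and 5, with log2 fold changes of -0.51 to -0.43 and adjusted p up to 0.0657 (limma).

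Sncg and Thy1 have short transcripts, 852 and 1735 bases in the longest form, and both moved with a property of the libraries. For each mouse a length slope was taken, the change of log2 deviation per doubling of transcript length over genes averaging 50 or more normalized reads. It ranged from -0.22 to 0.19 in OIR p17 and from -0.059 to 0.13 in nOIR p17 mice. Over 26 mice, with group means removed, Sncg (Pearson r = -0.96, Spearman rho = -0.90) and Thy1 (Pearson r = -0.90, Spearman rho = -0.88) were lower in mice with a higher slope, and Sncg and Thy1 followed each other (Pearson r = 0.90, Spearman rho = 0.89). The other 8 members have longer transcripts, of 2360 to 4445 bases, and moved with the slope less closely: Nefm (Pearson r = -0.67, Spearman rho = -0.52) and Pou4f3 (Pearson r = -0.56, Spearman rho = -0.57) were lower and Nefh (Pearson r = 0.50, Spearman rho = 0.45) higher where the slope was higher, and the remaining 5 had Pearson r of -0.43 to 0.38. These are descriptions, and the points share library and depth. The genes behind the slope include the members, and a higher slope by definition sets short transcripts lower on average relative to long ones.

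With the length slope as a covariate, a setting chosen after the data were seen, 6 members were called lower at p14 and 8 at p17, and the share of all genes called lower rose as well, to 4.74% at p14 and 8.13% at p17. Sncg then passed at p14 (log2 fold change -0.19, adjusted p = 0.0267, limma) and at p17 (log2 fold change -0.38, adjusted p = 4.47e-06, limma). Thy1 passed at p14 as well (log2 fold change -0.37, adjusted p = 0.00605, limma), as did Pou4f3 at p17 (log2 fold change -0.80, adjusted p = 0.0129, limma).

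Rbpms, a marker of nearly all RGCs, was the member closest to 0 at both ages. It ranged over 1249 to 1659 (median 1545) normalized reads in nOIR p14 and 1201 to 1600.3 (median 1456) in OIR p14 mice, and over 1387 to 1637 (median 1489.5) in nOIR p17 and 1039 to 1656 (median 1493) in OIR p17 mice. The groups overlapped, with log2 fold change -0.047, 95% CI -0.25 to 0.15, adjusted p = 0.893 at p14 and log2 fold change -0.042, 95% CI -0.23 to 0.15, adjusted p = 0.854 at p17 (limma). The intervals allow a fall of up to 0.25 and a rise of up to 0.15 on the log2 scale, and the sign at p17 turned positive under several settings.

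The groups did not overlap in 4 members at p14, all lower in OIR, against 1.86% of all genes tested, and in 3 members at p17, against 1.98%.

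Whether the effect of OIR on the members changed from p14 to p17 was tested as a contrast. No member passed (limma with Benjamini-Hochberg adjustment), whereas 1.58% of all genes did, and edgeR and DESeq2 on recovered reads also called 0 of 10. A single member had an unadjusted p under 0.05, Nefh (log2 fold change -1.14, 95% CI -2.01 to -0.28, adjusted p = 0.245, limma), and without the 4 mice low in Csnk1g2 its difference was -0.30 (adjusted p = 0.772, limma). That a member passed at a single age therefore does not show that its effect changed with age.

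Between ages, in comparisons that share mice with those above, no member passed (limma with Benjamini-Hochberg adjustment) in nOIR mice, where 0.317% of all genes did, or in OIR mice, where 5.91% did. In nOIR mice 2 members had an unadjusted p under 0.05, Nefl (log2 fold change 0.21, 95% CI 0.011 to 0.42, adjusted p = 0.653, limma) and Nefm (log2 fold change -0.23, 95% CI -0.40 to -0.055, adjusted p = 0.400, limma), both as p17 against p14. In OIR mice it was 1, Nefh (log2 fold change -0.62, 95% CI -1.21 to -0.034, adjusted p = 0.239, limma). DESeq2 and edgeR called 0 members in either comparison.

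Other genes of RGCs were then read from lists. These lists, and those of other cell types below, were chosen with earlier results of these data known. Their counts beside the shares of all genes are therefore descriptions and no independent support. Of 25 other genes widely expressed in RGCs, 9 were lower and 0 higher at p14, where 2.91% of all genes tested were called lower, and 14 were lower and 0 higher at p17, where 5.12% were, with medians of -0.24 and -0.35 on the log2 scale. Chrna6 and Chrnb3, subunits of a nicotinic acetylcholine receptor, had the smallest adjusted p of the list at both ages. Chrna6 was 5631 ± 503 in nOIR and 3405 ± 437 in OIR mice at p17 (normalized reads, mean ± SD, log2 fold change -0.73, adjusted p = 5.5e-07, limma), and Chrnb3 was 2768 ± 318 in nOIR and 1513 ± 258 in OIR (log2 fold change -0.88, adjusted p = 2.34e-06, limma). At p14 Tubb3, a neuronal tubulin, fell (log2 fold change -0.54, adjusted p = 0.000241, limma), as did the transcription factor Ebf1 (log2 fold change -0.45, adjusted p = 0.000993, limma). At p17 Nell2, a secreted neuronal glycoprotein, fell (log2 fold change -0.44, adjusted p = 1.74e-05, limma), as did the RNA-binding protein gene Elavl4 (log2 fold change -0.41, adjusted p = 0.00111, limma).

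Of 21 genes of RGC subtypes, 3 were lower and 0 higher at p14 (2.91% of all genes lower and 3.18% higher), and 5 were lower and 1 higher at p17 (5.12% lower and 7.39% higher), and their medians were -0.15 and -0.14. Cck, the neuropeptide cholecystokinin, fell from 336 ± 69.2 to 73.4 ± 19.7 normalized reads at p14 (log2 fold change -2.19, adjusted p = 5.79e-07, limma) and was 502 ± 84.8 in nOIR and 130.3 ± 53.2 in OIR at p17 (log2 fold change -2.05, adjusted p = 1.17e-07, limma). Tafa4 fell at p14 (log2 fold change -0.94, adjusted p = 0.000153, limma) and at p17 (log2 fold change -1.15, adjusted p = 7.09e-07, limma). Opn4, the melanopsin of intrinsically photosensitive RGCs, fell at p14 (log2 fold change -0.49, adjusted p = 0.0218, limma). Tac1, a precursor of substance P, rose at p17 (log2 fold change 0.82, adjusted p = 0.00115, limma), and Spon1 fell (log2 fold change -0.37, adjusted p = 0.00232, limma). Cck, Tafa4 and Tac1 are also found in amacrine cells.

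Among 16 factors of RGC development, 1 was lower and 0 higher at p14, where 2.91% of all genes were called lower and 3.18% higher. At p17, 2 were lower and 1 higher, where 5.12% of all genes were called lower and 7.39% higher. Counts of 1 and 2 among 16 are near the shares over all genes and are no result about the list. Irx6 fell at both ages (log2 fold change -0.52, adjusted p = 0.00470 at p14 and -0.45, adjusted p = 0.00419 at p17, limma), Gdf11 fell at p17 (log2 fold change -0.60, adjusted p = 0.00526, limma), and Sox11, a factor of immature neurons, rose at p17 (log2 fold change 0.74, adjusted p = 0.00292, limma).

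Among genes that neurons induce after axon injury, calls were in the other direction. Of 20, 3 were higher and 0 lower at p14, and 11 were higher and 0 lower at p17, where 3.18% and 7.39% of all genes were called higher, and the list medians were 0.11 and 0.59. Ecel1, a peptidase of injured neurons, was 15.9 ± 12.1 in nOIR and 369 ± 167 in OIR mice at p14 (normalized reads, log2 fold change 4.52, adjusted p = 1.03e-06, limma). Atf3, a stress-induced transcription factor, was 113 ± 25.4 in nOIR and 672 ± 438 in OIR at p17 (log2 fold change 2.40, adjusted p = 1.49e-07, limma), and Tnfrsf12a, the TWEAK receptor, was 127 ± 17.7 in nOIR and 689 ± 257 in OIR (log2 fold change 2.36, adjusted p = 2.14e-09, limma). Jun rose at p17 (log2 fold change 0.75, adjusted p = 2.78e-05, limma). Glia and vascular cells also express Atf3, Jun and Tnfrsf12a, and the cell of origin was not measured.

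Of 16 genes of the axon initial segment, node and axonal ion channels, 2 were lower at p14 and 7 at p17, against 2.91% and 5.12% of all genes, with 0 higher at either age and medians of -0.25 and -0.46. The potassium channel genes Kcnc2 (log2 fold change -1.11, adjusted p = 7.16e-07, limma), Kcna2 (log2 fold change -0.76, adjusted p = 2.93e-05, limma) and Kcnc1 (log2 fold change -0.86, adjusted p = 0.00316, limma) fell at p17, as did the sodium channel gene Scn1a (log2 fold change -0.81, adjusted p = 3.84e-06, limma). Scn4b, a sodium channel subunit, fell at p14 (log2 fold change -1.21, adjusted p = 0.0127, limma).

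Of 16 neurotrophin and survival genes, 1 was called lower at p14 and 3 at p17, against 2.91% and 5.12% of all genes, so that the count at p14 is near that share. Bdnf, a survival factor of RGCs, fell at p14 (log2 fold change -0.56, adjusted p = 0.0330, limma). At p17 the receptor genes Cntfr (log2 fold change -0.71, adjusted p = 0.000912, limma) and Gfra1 (log2 fold change -0.45, adjusted p = 0.00208, limma) fell, as did Igf1 (log2 fold change -0.36, adjusted p = 0.00693, limma).

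**Figure D4:**
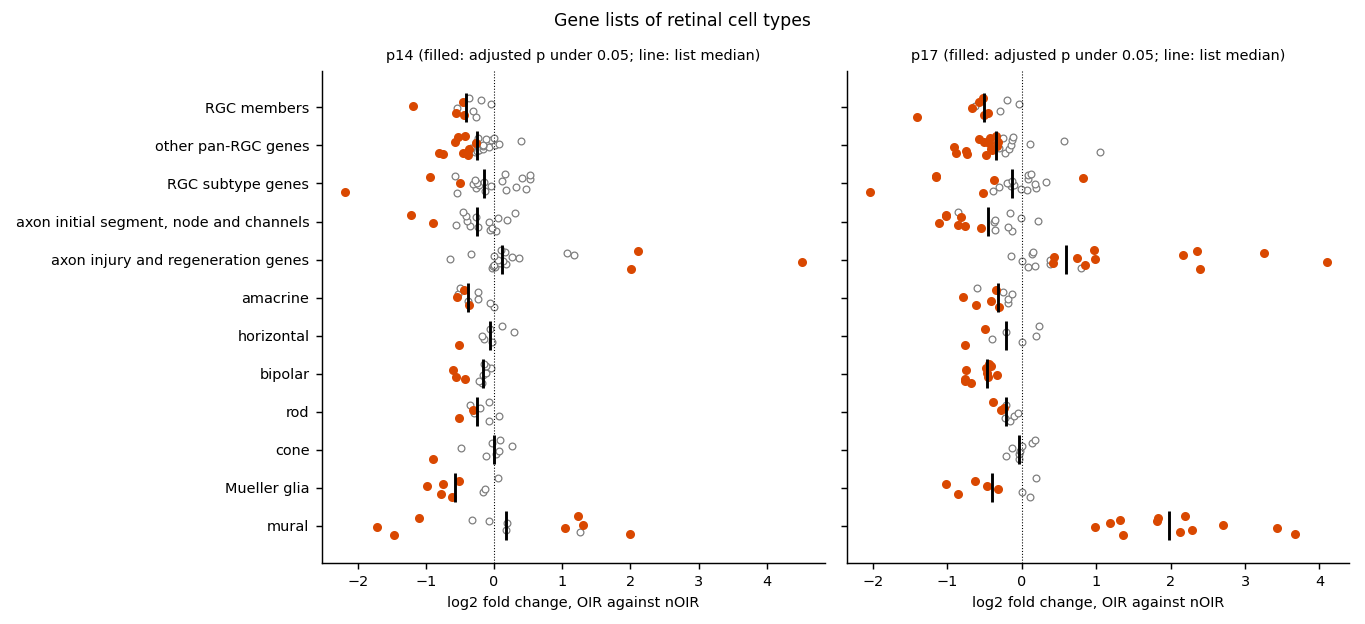
Log2 fold change of OIR against nOIR mice (horizontal axis) at p14 (left) and p17 (right) for the members of 12 gene lists, 1 point per gene, filled where the adjusted p was under 0.05, with a vertical line at each list's median. The median of the RGC members was -0.41 at p14 and -0.51 at p17, and lower calls also appear in the lists of bipolar, amacrine and Müller cells.

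Lower calls were also made among markers of other retinal neurons. The 10 bipolar cell markers include Isl1, also among the other genes widely expressed in RGCs, and its call at p17 counts in both lists. Of these 10 markers, 3 were called lower at p14 and 10 at p17, where 2.91% and 5.12% of all genes were. Their summed level overlapped at p14, with 54399.9 to 61367 normalized reads in nOIR and 43427 to 55180.2 in OIR mice, and at p17 it was 52935 to 58299.8 normalized reads in nOIR and 35236 to 43759 in OIR mice, without overlap. Of 10 amacrine markers, 3 were lower at p14 and 5 at p17. At p14 their sum was 19299 to 22671 normalized reads in nOIR and 14904 to 18111 in OIR mice. At p17 it was 21337 to 24221 in nOIR and 14509 to 17746 in OIR mice, so the amacrine sum did not overlap at either age. The sum of the 10 RGC members was 39641 to 48104 in nOIR p14 and 32152 to 35734 in OIR p14 mice, and 46493 to 51488 in nOIR p17 and 29255 to 42487 in OIR p17 mice, again without overlap. This sum is weighted to the abundant members, the neurofilament genes above all. In nOIR p17 mice Nefl had a mean of 21631 normalized reads and Pou4f1 a mean of 509. Rod markers were lower in 2 of 8 at p14 and 3 of 8 at p17. Of 12 mural cell markers, 4 were higher and 3 lower at p14, against 3.18% of all genes called higher and 2.91% lower. Their sums at p14 were 4392 to 4935 in nOIR and 3201 to 6055 in OIR mice. The sum was 3420.3 to 4289.7 in nOIR p17 and 12288 to 18557 in OIR p17 mice, with 12 of 12 called higher against 7.39% of all genes. Whether RNA added by other cells moves the members was not tested. Rescaling each mouse to the same total left the numbers of members called lower at 4 for p14 and 6 for p17. Such rescaling does not measure RNA added by other cells.

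The members did not vary as a unit among mice of a group. Of 45 pairs of members, 7 had a Pearson r above 0.5 over 26 mice and 24 were negative, with a range of -0.57 to 0.90. The highest was that of Sncg and Thy1, and the lowest was that of Sncg and Nefh (Pearson r = -0.57, Spearman rho = -0.53). Slc17a6 followed Gad1, an enzyme of GABA synthesis in amacrine cells (Pearson r 0.83, Spearman rho 0.78), and Nefl followed Atp1b1, a subunit of the sodium pump (Pearson r 0.85, Spearman rho 0.81). Pou4f1 followed Khdrbs3 (Pearson r 0.89, Spearman rho 0.80), Ranbp9 (Pearson r 0.89, Spearman rho 0.74) and Ube2ql1 (Pearson r 0.89, Spearman rho 0.85), and Khdrbs3 ranged over 966 to 6478 (median 2865) normalized reads in OIR p17 mice. The highest r for Pou4f2 (Zscan26, Pearson r 0.74, Spearman rho 0.62) and Rbpms (Pcsk2os1, Pearson r 0.76, Spearman rho 0.57) were lower than those for Sncg (Gng3, Pearson r 0.97, Spearman rho 0.93) and Thy1 (Hsbp1, Pearson r 0.94, Spearman rho 0.92). These values are descriptions over mice that share library preparation and depth.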

How the data were processed

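Whole-retina RNA of 27 mice was sequenced by the authors, who mapped reads to the mouse reference (Gencode M28) with STAR 2.7.8a and counted them on genes with featureCounts 2.0.1. Their methods state that genes at 0 in all samples were removed, and 164 genes of the deposited table were at 0 in all 27 mice. The deposited values are a signal of normalized reads, meaning counts divided by a DESeq2 1.34 size factor per mouse. The authors' group means, log2 fold changes and adjusted p-values in the deposited table hold their own comparisons and were not used. Within a mouse all values were multiples of 1 step (tolerance 0.01), so whole reads were recovered for 100% of values.

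After addition of a pseudocount of 1, genes averaging 1 normalized read or more were tested with limma 3.58.1 (trend) in R 4.3.3 on 26 mice in 4 groups, with p-values adjusted by the Benjamini-Hochberg method over 27137 genes. The recipe was tested on simulated data, and the outcome of that test is not given here. Named genes are the 10 members, from each other list up to 4 called genes with the smallest adjusted p that averaged 10 normalized reads or more, and for likeness the 3 genes with the highest Pearson r among genes averaging 50 or more. A call in the higher direction among the neurotrophin and survival genes is not reported here. Members and lists were chosen with earlier results of these data known. Transcript lengths and promoters came from reference tables of other annotation releases than the one the authors used. PCR copies were not removed, so recovered totals are reads and not molecules. Alternatives were a pseudocount of 0.1, other filters, the left-out mouse included, only the compared groups, a block for replicate numbers, rescaling, quantile normalization, edgeR 4.0.16, DESeq2 1.42.0, log2 Cryaa as a covariate, and the removal of single mice. The length slope as a covariate and the removal of mice low in Csnk1g2 were added after the data were seen.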

Additional observations from a re-analysis of the deposited data

Results flagged for a closer look

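Among 40 combinations of a member and a group, 4 had a mouse far from the others of its group, by its gap to the nearest mouse relative to the range of the group, and chance gives about 1 in 20 such groups. Rbpms was lowest in OIR p17 replicate 7, at 1039 normalized reads, and Pou4f1 was highest in OIR p17 replicate 3, at 769. Pou4f2 was highest in OIR p14 replicate 3, at 247, and Nefl was highest in OIR p17 replicate 8, at 22158 normalized reads.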

How the results depend on the processing

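Over 39 alternatives, 26 of which left out a mouse, the number of members called lower at p14 was 4 to 6 and at p17 5 to 8, and no member was called in the other comparisons. Leaving out each mouse gave 4 to 5 at p14, 5 to 7 at p17 and 0 elsewhere. edgeR and DESeq2 on recovered reads gave 4 and 6. Rbpms, which was not called, turned positive at p17 under quantile normalization (0.0074), rescaling to the same total (0.025), without the mice low in Csnk1g2 (0.011) and without OIR p17 replicate 7 (leaving out each mouse gave -0.070 to 0.026), and at p14 without OIR p14 replicate 1 (-0.095 to 0.0028). Nefh in OIR mice, p17 against p14, turned from -0.62 to 0.018 without the mice low in Csnk1g2, which are those lowest in Nefh. The cause of these turns was not tested. Replicate numbers did not pair the mice: of 34 same-numbered pairs 17 had a correlation above 0.1, and 6 of 26 mice correlated best with their own number. With a replicate block, 4 members were called lower at p14, 7 at p17 and 0 in the other comparisons, Pou4f3 at p17 being the addition (-0.83, adjusted p = 0.0259, limma). Pou4f3 at p17 passed in 7 of the alternatives, among them Cryaa as a covariate (-0.73, adjusted p = 0.0492, limma), quantile normalization (-0.83, adjusted p = 0.0338, limma) and the removal of OIR p17 replicate 3 (adjusted p = 0.0471, limma) or 8 (adjusted p = 0.0295, limma). Pou4f2 at p14 passed with nOIR p14 replicate 4 included (-0.57, adjusted p = 0.0439, limma). The fit on the compared groups only gives no value for the difference between ages. Besides Rbpms, leaving out 1 mouse moved 4 differences of OIR from nOIR mice that were not called by over 1.5 times: Nefh at p14 (-0.48 without nOIR p14 replicate 6 to -0.18 without nOIR p14 replicate 1), Pou4f1 at p14 (-0.45 without nOIR p14 replicate 6 to -0.17 without OIR p14 replicate 5) and at p17 (-0.46 without nOIR p17 replicate 3 to -0.19 without nOIR p17 replicate 4), and Sncg at p17 (-0.29 without OIR p17 replicate 8 to -0.095 without OIR p17 replicate 1). The lowest mean of any member was 99.2 normalized reads, that of Pou4f3, and the effect of depth was not tested. The widest intervals were those of Pou4f1, Pou4f3 and Nefh. For Nefh at p17 the SE was 0.29, and it was 0.13 without the 4 mice low in Csnk1g2.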

Other observations

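Other cell types of the inner retina, read from the remaining lists, moved in both directions, and their counts are to be read against the shares of all genes called, 2.91% lower and 3.18% higher at p14 and 5.12% lower and 7.39% higher at p17. Of 5 astrocyte genes, 3 were higher at p14 and 4 at p17, and their summed level was 1455 to 2285 normalized reads in nOIR p14 and 3502 to 9910.3 in OIR p14 mice. Microglial genes were higher in 1 of 7 at p14 and 5 of 7 at p17, with sums of 1761 to 2054 in nOIR p17 and 2878 to 4819 in OIR p17. Endothelial genes were higher in 2 and lower in 1 of 8 at p14, and higher in 6 of 8 at p17. Müller glia genes were lower in 5 of 8 at each age. Their sum at p14 was 93649 to 121249 normalized reads in nOIR and 76059 to 92638 in OIR mice, without overlap, and the groups overlapped at p17. Of 7 horizontal cell genes 1 was lower at p14 and 2 at p17, too few to say anything of the list. Calb1 was called at both ages (log2 fold change -0.51, adjusted p = 0.00864 at p14 and -0.76, adjusted p = 1.39e-05 at p17, limma). Of 8 cone genes, 1 was lower at p14 and 0 at p17, with list medians of 0.0034 and -0.032 on the log2 scale. The one called, Arr3, the cone arrestin, was lower at p14 (log2 fold change -0.89, adjusted p = 0.000379, limma), and at p17 its level was 4159 ± 485 normalized reads in nOIR and 4110.4 ± 959 in OIR mice, and its effect differed between the ages (difference 0.85, adjusted p = 0.0354, limma). Limma made no call among 9 lens, 5 pigment epithelium and 6 oligodendrocyte and Schwann cell genes at either age.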
